A study of Mus musculus with 6 samples.

Results

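The 8 genes described here encode enzymes and transporters by which the liver makes, releases and takes up glucose, together with Txnip, which encodes thioredoxin-interacting protein. They are G6pc, Slc37a4, Pck1, Fbp1, Pcx, Pklr, Slc2a2 and Txnip, 8 of the 8252 genes that the arrays read with a probe set naming a single gene. The members are all probe sets whose single gene symbol in the platform annotation is one of these names, which gave 15 probe sets, of which 4 are array controls for Pcx. All 15 lay above the floor intensity of 68.9, the pooled 30th percentile of all values, on each of the 6 arrays. The liver RNA came from C57BL/6 mice, a common inbred laboratory strain, kept for 12 weeks on either a high-fat Western style diet (3 arrays) or a low-fat diet (3 arrays). The labels give no sex, age, fasting state or time of collection. They do not say whether an array holds 1 mouse or a pool, so p-values measure the spread between these arrays. The keywords in the labels include LDL receptor deficiency, while all 6 samples are labelled C57BL/6.

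In gluconeogenesis, the liver builds glucose from lactate, amino acids and glycerol, largely by running glycolysis backwards around its irreversible steps. Pyruvate carboxylase (Pcx) and the cytosolic phosphoenolpyruvate carboxykinase (Pck1) bypass pyruvate kinase, fructose bisphosphatase (Fbp1) bypasses phosphofructokinase, and glucose-6-phosphatase (G6pc), supplied with its substrate by the transporter Slc37a4, frees glucose for release. Pck1 and G6pc are known to be induced by fasting signals such as cyclic AMP and repressed by insulin. Pklr, the liver pyruvate kinase, and Txnip, an arrestin-fold protein that binds thioredoxin and restrains glucose uptake, are known targets of the glucose-sensing factors ChREBP and MondoA, which bind a double E-box called the carbohydrate response element.

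The stretches of promoter before the start sites of 4 of the genes are printed because they carry the elements for which these genes are known. They come from RefSeq on mouse assembly GRCm38.p6, where all 8 genes had at least 1 start site and 12 windows of 250 bases were searched on both strands. Capitals mark the matches, positions count back from the base before the start (-1), and all 4 genes lie on the plus strand. The Txnip window is chr3:96557707-96557956 and the Pklr window, the second of its annotated starts, is chr3:89136373-89136622. The Pck1 window is chr2:173152823-173153072 and the G6pc window is chr11:101367466-101367715.
Txnip: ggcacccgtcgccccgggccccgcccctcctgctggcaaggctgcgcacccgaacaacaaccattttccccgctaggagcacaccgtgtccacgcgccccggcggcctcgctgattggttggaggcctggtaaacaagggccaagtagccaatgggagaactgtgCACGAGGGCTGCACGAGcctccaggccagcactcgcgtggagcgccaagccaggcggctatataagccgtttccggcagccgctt
Pklr: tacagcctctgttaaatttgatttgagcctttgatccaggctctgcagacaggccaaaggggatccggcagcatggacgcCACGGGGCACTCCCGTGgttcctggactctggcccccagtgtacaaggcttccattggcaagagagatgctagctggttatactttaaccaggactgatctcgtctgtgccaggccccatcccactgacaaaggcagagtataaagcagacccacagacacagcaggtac
Pck1: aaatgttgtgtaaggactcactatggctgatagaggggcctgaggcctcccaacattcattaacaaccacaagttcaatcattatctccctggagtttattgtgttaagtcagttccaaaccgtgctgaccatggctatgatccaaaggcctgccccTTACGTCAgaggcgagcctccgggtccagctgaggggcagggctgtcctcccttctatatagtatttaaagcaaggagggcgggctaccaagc
G6pc: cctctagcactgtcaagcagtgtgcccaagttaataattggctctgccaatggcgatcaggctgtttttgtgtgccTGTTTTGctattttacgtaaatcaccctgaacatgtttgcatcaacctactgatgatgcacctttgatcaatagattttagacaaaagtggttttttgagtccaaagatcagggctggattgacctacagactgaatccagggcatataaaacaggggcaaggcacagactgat

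The double E-box was searched as CACGNG and CNCGNG with a gap of 5 bases between them, where N is any base, and was held by 0.280% of 32851 promoter windows of this length. Among the 12 windows of the 8 genes it was found once in Txnip, at positions -85 to -69, and once in Pklr, at positions -170 to -154. The cyclic AMP response element was searched as TNACGTCA and was held by 2.52% of all windows, and among the 8 genes by Pck1 at positions -93 to -86. The insulin response sequence was searched as TGTTTTG and was held by 5.56% of all windows, and among the 8 genes by G6pc at positions -174 to -168. No match overlapped another. A match is a description of letters, and binding was not measured here.

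Txnip fell on the high-fat diet by the brighter of its probe sets, and this was the only one of the 11 tested member probe sets past an adjusted p of 0.05. Probe set 160547_s_at read 933.5, 666.7 and 688.7 on the high-fat arrays, against 2511.2, 1608.2 and 2183.3 on the low-fat arrays. Every high-fat array lay below every low-fat array, with the nearest pair at 933.5 and 1608.2. It averaged 763 ± 148 (SD) over the 3 high-fat arrays, against 2101 ± 457 (SD) over the 3 low-fat arrays. In limma's test over 8950 probe sets the log2 difference was -1.45 ± 0.20 (SE), a level 2.74-fold lower on the high-fat diet (95% interval 2.01 to 3.73), with an adjusted p of 0.0135. It ranked 25 among the 8950 probe sets by p. Of all tested probe sets 0.827% passed, 0.425% as lower and 0.402% as higher on the high-fat diet.

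The other Txnip probe set did not follow. Probe set 160548_at read 576.9, 438.2 and 423.0 on the high-fat arrays, against 417.8, 359.5 and 410.4 on the low-fat arrays. The high-fat arrays lay just above the low-fat ones, the closest pair being 423.0 and 417.8. Its log2 difference was 0.26 ± 0.19 (SE), with a 95% interval of -0.17 to 0.70 and an adjusted p of 0.780 in limma, and it was 0.12 without high-fat array 1. Within each array, the log2 ratio of the first Txnip probe set to the second averaged 0.67 ± 0.05 (SD) over the 3 high-fat arrays, against 2.39 ± 0.21 (SD) over the 3 low-fat arrays. An exact two-sided permutation test of that ratio gave p = 0.1, the smallest that 3 arrays against 3 allow. The suffix of the first probe set marks probes that may match more than 1 transcript, and which transcript forms each set reads was not tested. With the 2 probe sets averaged, an alternative chosen after the data were seen, the Txnip difference was -0.59 with an adjusted p of 0.268. The call of 160547_s_at was also lost without the second high-fat array (adjusted p = 0.0596) and without the first low-fat array (0.0590), while the difference stayed between -1.63 and -1.31 with each array left out in turn.

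**Figure D1:**
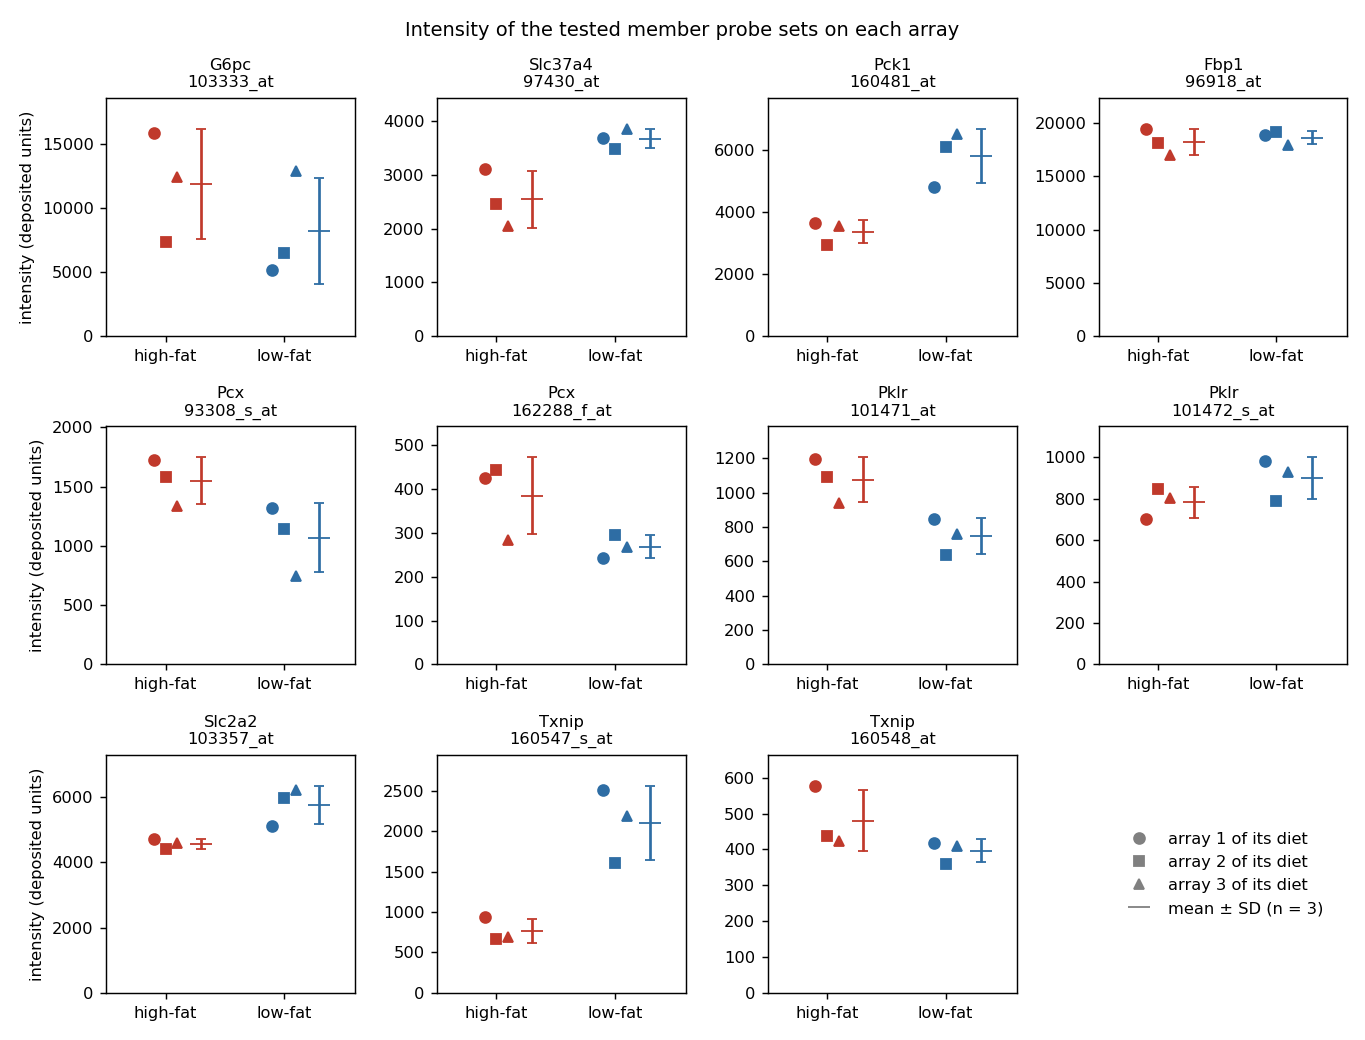
Intensity in deposited units (vertical axes from 0) of the 11 tested member probe sets on the 3 high-fat arrays (red, left) and the 3 low-fat arrays (blue, right); symbols mark the array number and bars the mean ± SD. Txnip 160547_s_at lies at 666.7 to 933.5 on the high-fat arrays and at 1608.2 to 2511.2 on the low-fat arrays, while 160548_at shows no such gap.

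Among the genes of glucose output, Pck1 lay closest to the threshold without passing it. Its probe set read 3624.6, 2938.6 and 3525.4 on the high-fat arrays, against 4802.2, 6069.4 and 6486.5 on the low-fat arrays. The diets did not overlap, with averages of 3363 ± 371 (SD) over the 3 high-fat arrays, against 5786 ± 877 (SD) over the 3 low-fat arrays. The log2 difference was -0.78 ± 0.15 (SE), a low-fat over high-fat ratio of 1.71 (95% interval 1.36 to 2.16), with an adjusted p of 0.0560 in limma. The limma adjusted p was under 0.05 in 4 of the alternatives, among them a filter that asks for all 6 arrays above the floor (0.0453). It was 0.289 without a filter and 0.244 without the intensity trend. With each array left out in turn it ran from 0.0597 to 0.245, while the difference stayed between -0.91 and -0.68.

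Slc37a4, which carries glucose 6-phosphate into the endoplasmic reticulum, read 3115.9, 2468.1 and 2054.2 on the high-fat arrays, against 3688.2, 3491.8 and 3853.1 on the low-fat arrays. The diets did not overlap, and the high-fat arrays were the more spread, with a coefficient of variation of 21.0% against 4.92% on the low-fat diet. The log2 difference was -0.55 ± 0.16 (SE), with a 95% interval of -0.90 to -0.20 and an adjusted p of 0.253 in limma.

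G6pc, the catalytic subunit that takes up this substrate, varied more between arrays of 1 diet than between diets. It read 15875.9, 7315.9 and 12471.3 on the high-fat arrays, against 5181.9, 6525.5 and 12914.5 on the low-fat arrays. The diets overlapped, since low-fat array 3 lay above 2 of the 3 high-fat arrays. The coefficient of variation was 36.3% over the high-fat arrays, against 50.3% over the low-fat arrays, and the residual SD on the log2 scale, 0.63, stood at the 92.6th percentile of all tested probe sets. The log2 difference was 0.58 ± 0.36 (SE), with a 95% interval of -0.24 to 1.39 and an adjusted p of 0.730 in limma, so neither a rise of 2.62-fold nor a small decrease falls outside the interval. Leaving out the first or the second high-fat array gave a difference of 0.33 or 0.89, leaving out low-fat array 1 or 3 gave 0.30 or 0.96, and none of these passed.

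Fbp1 was the steadiest of the 8 genes. It read 19465.1, 18136.8 and 17041.3 on the high-fat arrays, against 18879.4, 19158.2 and 17934.6 on the low-fat arrays. The arrays of both diets were interleaved, and its residual SD stood at the 2.40th percentile. The log2 difference was -0.04 ± 0.13 (SE) with a 95% interval of -0.33 to 0.26, so these arrays place any change of Fbp1 between 0.794-fold and 1.20-fold.

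Pcx, the mitochondrial enzyme that turns pyruvate into oxaloacetate, was read by 2 tested probe sets and by 4 array controls placed along the transcript. Probe set 93308_s_at carries the suffix for probes that may match more than 1 transcript. It read 1727.4, 1580.5 and 1336.6 on the high-fat arrays, against 1315.9, 1142.2 and 748.8 on the low-fat arrays. The arrays did not overlap, although 1336.6 and 1315.9 lay side by side, and the log2 difference was 0.57 ± 0.21 (SE) with an adjusted p of 0.433 in limma, or 0.33 without low-fat array 3. The dimmer set 162288_f_at, marked as shared within a gene family, read 425.6, 443.2 and 284.5 on the high-fat arrays, against 241.6, 294.3 and 268.0 on the low-fat arrays, and the diets overlapped. Its log2 difference was 0.50 ± 0.24 (SE), with an adjusted p of 0.593 in limma.

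The Pcx controls differed with their place on the transcript. At the 3' end the control read 4495.0, 4648.3 and 3291.1 on the high-fat arrays, against 3471.2, 3121.5 and 2463.4 on the low-fat arrays. At the 5' end it read 647.9, 583.8 and 1255.1 on the high-fat arrays, against 918.6, 694.4 and 931.3 on the low-fat arrays. High-fat arrays 1 and 2 were thus the highest of all 6 at the 3' end and the lowest at the 5' end, while high-fat array 3 was the highest at the 5' end. In a fit that kept the control probe sets, an alternative chosen after the data were seen, the log2 differences were 0.46 at the 3' end, 0.33 and -0.08 for the middle sets MB and MA, and -0.11 at the 5' end, with adjusted p-values from 0.468 to 0.963 in limma. The 3' to 5' ratio of these controls, a measure of RNA integrity and of labelling, was 6.94, 7.96 and 2.62 on the high-fat arrays, against 3.78, 4.50 and 2.65 on the low-fat arrays. An exact two-sided permutation test of its log2 value gave p = 0.4. The same ratio of Gapdh was 1.22, 1.23 and 0.889 on the high-fat arrays, against 1.04, 1.07 and 0.824 on the low-fat arrays (exact permutation p = 0.5). Each high-fat Gapdh ratio lay above that of the same-numbered low-fat array, and the permutation test does not use array number. The Pcx ratio did not do so for array 3 (2.62 against 2.65). The actin ratio was 1.62, 1.96 and 1.79 on the high-fat arrays, against 1.63, 1.56 and 1.75 on the low-fat arrays (exact permutation p = 0.3). It was thus not higher for array 1. With the Gapdh ratio as a covariate, an alternative chosen after the data were seen, the log2 difference of 93308_s_at was 0.36 in place of 0.57 and that of 162288_f_at was 0.34 in place of 0.50, with adjusted p-values of 0.411 and 0.621 in limma. The Pcx ratio itself was not fitted.

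**Figure D2:**
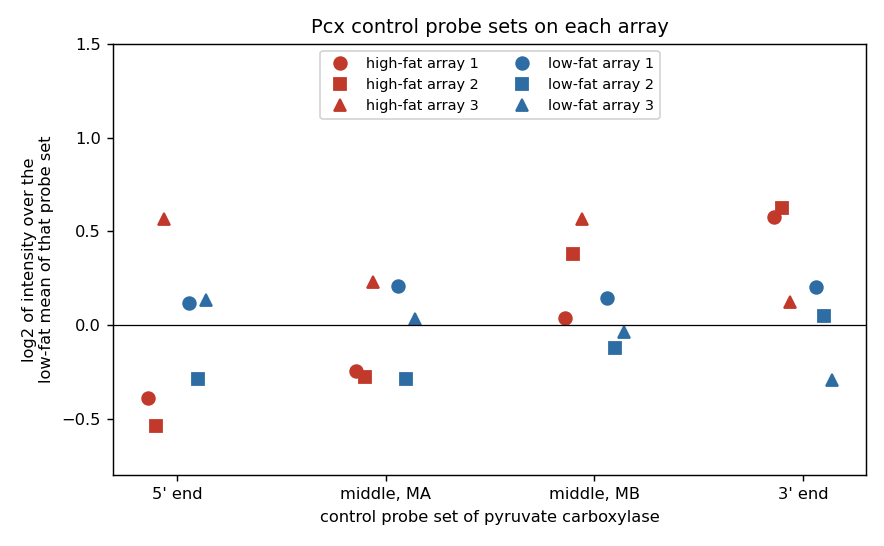
Log2 of the intensity of each Pcx control probe set over its own low-fat mean (vertical axis), for the sets at the 5' end, in the middle (MA and MB) and at the 3' end, with high-fat arrays in red left of low-fat arrays in blue. High-fat arrays 1 and 2 lie lowest at the 5' end and highest at the 3' end.

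Slc2a2 and Pklr serve the entry of glucose and the last step of glycolysis, and none of their 3 probe sets passed the test. Slc2a2, which encodes Glut2, the main glucose transporter of hepatocytes, read 4695.8, 4395.9 and 4592.4 on the high-fat arrays, against 5103.7, 5953.9 and 6203.9 on the low-fat arrays. The diets did not overlap, and the high-fat arrays were close together, with a coefficient of variation of 3.34% against 10.02% on the low-fat diet. The log2 difference was -0.33 ± 0.12 (SE), a low-fat over high-fat ratio of 1.26 (95% interval 1.04 to 1.51), with an adjusted p of 0.409 in limma.

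Pklr was read by 2 probe sets whose differences had opposite signs. Probe set 101471_at read 1197.0, 1089.3 and 938.8 on the high-fat arrays, against 844.8, 635.0 and 756.7 on the low-fat arrays, with no overlap. Its log2 difference was 0.53 ± 0.16 (SE), with a 95% interval of 0.17 to 0.89 and an adjusted p of 0.297 in limma. The other set, 101472_s_at, carries the suffix for probes that may match more than 1 transcript. It read 701.3, 845.9 and 802.4 on the high-fat arrays, against 980.1, 787.9 and 930.6 on the low-fat arrays, which overlapped. Its log2 difference was -0.20 ± 0.15 (SE), with a 95% interval of -0.53 to 0.14 and an adjusted p of 0.793 in limma, and it was -0.12 without high-fat array 1. The within-array log2 ratio of the first to the second averaged 0.45 ± 0.28 (SD) over the 3 high-fat arrays, against -0.27 ± 0.05 (SD) over the 3 low-fat arrays (exact two-sided permutation p = 0.1, the smallest possible). Of the 2 genes whose windows hold the double E-box, Txnip passed as lower by 1 probe set, and Pklr passed by neither. Txnip 160548_at and Pklr 101471_at were higher on the high-fat diet without overlap and did not pass. Any part of the element in these values was not tested.

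Of the 11 tested member probe sets, 1 passed the adjusted threshold, 6 were lower and 5 higher on the high-fat diet. An unadjusted p under 0.05 was reached by 6 of the 11, against 9.07% of all tested probe sets, and 7 of the 11 had arrays that did not overlap, against 14.1% of all. Of these 7, 4 were lower (Slc37a4, Pck1, Slc2a2 and Txnip 160547_s_at, against 6.76% of all) and 3 were higher (Pcx 93308_s_at, Pklr 101471_at and Txnip 160548_at, against 7.34% of all). Probe sets of 1 gene share a transcript, so these are not 11 separate observations. The members were also chosen with earlier results of these data known, so these shares do not test the members as a set.

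**Figure D3:**
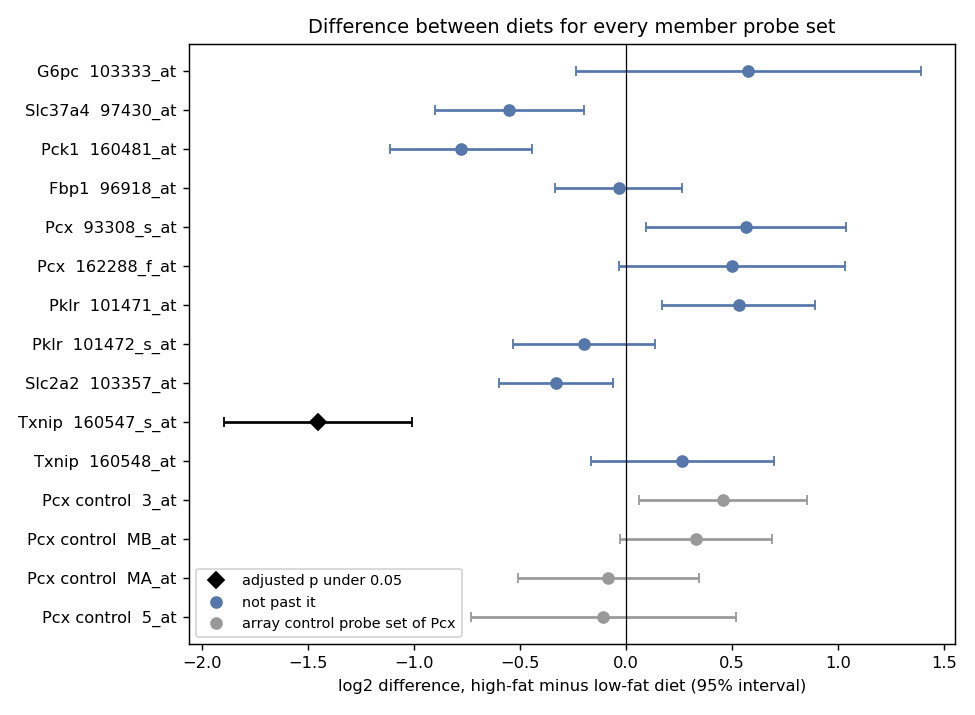
Log2 difference, high-fat minus low-fat diet, with its 95% interval (horizontal axis) for the 11 tested member probe sets and, in grey, the 4 Pcx controls from the fit that kept them. Txnip 160547_s_at, at -1.45, is the only one past an adjusted p of 0.05 (black diamond).

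Other genes of glucose metabolism were taken from 6 lists, which share Gpd1, Khk and Pdk4, with 1 probe set per gene (the one with the highest mean) and p-values adjusted over 6557 genes. The lists too were chosen with earlier results of these data known. Of 94 tested genes in the lists, 2 rose, 1 fell and 91 did not pass, beside 0.976% of all tested genes called, while 20 of the 94 had an unadjusted p under 0.05, beside 9.5% of all. The 3 that passed are all in the list for gluconeogenesis and glucose output, which had 22 tested genes. Its median log2 difference was -0.02, beside 0.0077 over all tested genes. Gpd1, the cytosolic glycerol 3-phosphate dehydrogenase that links glycerol to the triose phosphates, read 6684.7, 7572.9 and 6549.6 on the high-fat arrays, against 3671.2, 3973.3 and 3976.2 on the low-fat arrays. It rose 1.79-fold (limma adjusted p = 0.0126), while its far dimmer second probe set had a log2 difference of 0.51 and an adjusted p of 0.782.

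Ldha, a lactate dehydrogenase subunit that interconverts pyruvate and lactate, read 13135.3, 16389.3 and 15742.3 on the high-fat arrays, against 8077.6, 9667.0 and 8146.0 on the low-fat arrays. It rose 1.75-fold (limma adjusted p = 0.0380). Lpin1, a phosphatidate phosphatase and coactivator listed here for its link to Ppargc1a, read 507.4, 758.5 and 455.3 on the high-fat arrays, against 1138.8, 1620.6 and 1358.7 on the low-fat arrays. It was 2.43-fold lower (limma adjusted p = 0.0300). Neither diet overlapped the other for these 3 genes. With 1 array left out, the call of Gpd1 was lost without the second high-fat array or without low-fat array 1 or 2. Of the 6 fits with an array left out, Ldha passed in that without the first high-fat array alone, and Lpin1 in that without the second high-fat array alone. Ldha also lost its call under quantile normalization, scaling to a common median and a floor at the 10th percentile, and Gpd1 with the probe sets of a gene averaged. Without a filter or without the intensity trend, none of the 3 passed.

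The list for glycolysis and glucose entry had 0 of 24 genes past limma's threshold, with 5 at an unadjusted p under 0.05 and a median of 0.07. Pkm, the pyruvate kinase gene of muscle and most other tissues, had a ratio of 1.95 of high-fat to low-fat diet (adjusted p = 0.133), and the aldolase gene Aldoc a ratio of 1.58 of low-fat to high-fat diet (0.273). A second, dimmer probe set of Pkm had a log2 difference of 0.40, a ratio of 1.32 of high-fat to low-fat diet. Glycogen metabolism had 0 of 12 past limma's threshold, with 1 at an unadjusted p under 0.05 and a median of 0.06, where the phosphorylase gene Pygb had a ratio of 1.62 of high-fat to low-fat diet (adjusted p = 0.413) and the glycogenin gene Gyg one of 1.34 (0.676). A second, dimmer probe set of Gyg had a log2 difference of 0.16. Among the 16 tested targets and partners of ChREBP, Gpd1 alone passed, 8 had a difference above 0 and 8 below, and the median was 0.0046. The fatty acid synthase gene Fasn had a ratio of 1.39 of high-fat to low-fat diet (adjusted p = 0.494).

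The list for the thioredoxin system and the Txnip family had 0 of 12 tested genes past limma's threshold, with 2 at an unadjusted p under 0.05 and a median of -0.03. Arrb1 was the only arrestin gene among the 12, with a log2 difference of 0.60 (adjusted p = 0.643). Other arrestin relatives of Txnip were not tested in this list. Txn1, the cytosolic thioredoxin that Txnip binds, was chosen after its values were seen and had a log2 difference of 0.13 (adjusted p = 0.829). The thioredoxin reductase gene Txnrd3 had a ratio of 1.83 of low-fat to high-fat diet (adjusted p = 0.138), with a second, dimmer probe set at 0.04 on the log2 scale, and the peroxiredoxin gene Prdx4 a ratio of 1.33 (0.489). The list of fasting- and insulin-responsive genes had 0 of 11 past it, with 5 at an unadjusted p under 0.05 and a median of -0.15. Srebf1, an insulin-induced lipogenic factor, had a ratio of 1.40 of high-fat to low-fat diet (adjusted p = 0.321), and the pseudokinase gene Trib3 one of 1.89 of low-fat to high-fat diet (0.374).

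**Figure D4:**
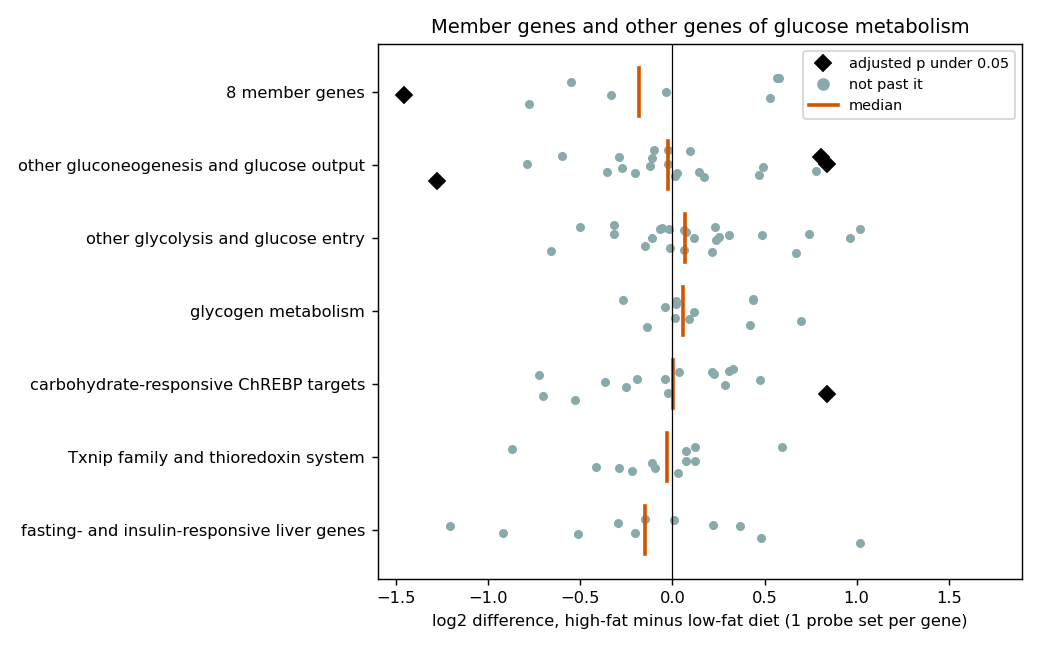
Log2 difference, high-fat minus low-fat diet (horizontal axis), of the 8 member genes and of the tested genes of 6 lists, 1 probe set per gene, with black diamonds for an adjusted p under 0.05 and orange bars for medians. List medians run from -0.15 to 0.07 and the member genes run from -1.45 for Txnip to 0.58 for G6pc.

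The genes whose pattern over the 6 arrays was most like that of Txnip 160547_s_at were Mybbp1a (Pearson r = 0.986), Ncoa2 (0.975) and Rttn (0.973), among 6556 genes compared, of which 95 had an r above 0.9. Those nearest to G6pc were R3hcc1 (0.984), Ppp2ca (0.976) and Pdgfrb (0.972), and those nearest to Pklr 101471_at were Klf9 (0.982), Rabepk (0.981) and Septin9 (0.972). With 6 arrays in 2 diets such values describe these arrays only. None of the 9 genes passed limma's threshold. Mybbp1a read 108.7, 70.9 and 68.3 on the high-fat arrays, against 264.7, 163.7 and 298.9 on the low-fat arrays, with an adjusted p of 0.0705.

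Markers of the labelled tissue were present on all arrays. Median intensities of the arrays lay between 171.5 and 188.4. Of 12 hepatocyte markers 11 were on the array and 11 of 11 were tested, with summed intensities of 198980 to 253904 on high-fat arrays, against 198784 to 260002 on low-fat arrays. Macrophage markers had 11 of 11 tested genes above 0 and 0 past limma's threshold, with sums of 11398 to 13674 on high-fat arrays, against 8318.5 to 11353 on low-fat arrays, and their part in the results was not tested. Glut2 is also made by islet cells, whose 6 markers on the array summed to 307.7 to 376.3 on high-fat arrays, against 414.3 to 477.4 on low-fat arrays, lower without overlap as Slc2a2 was. Of these 6, Ins2, Gcg and Iapp lay below the floor on all 6 arrays, Sst and Pcsk1 were above it on 1 array each, and Chga was above it on all 6, at 199.8 to 232.2 on high-fat arrays, against 249.9 to 305.9 on low-fat arrays. Their part in the Slc2a2 values was not tested. Pck1 and Pcx are also made by adipocytes, whose 5 markers on the array summed to 14943 to 24895 on high-fat arrays, against 17945 to 22672 on low-fat arrays, most of it from Car3. Of the other adipocyte markers, Lep and Fabp4 were above the floor on all 6 arrays, Adipoq on 4 and Retn on none. Lep read 947.4 to 1050.5 on high-fat arrays, against 564.4 to 1118.1 on low-fat arrays. Fabp4 read 131.9 to 198.3, against 77.4 to 129.6, and Adipoq 48.3 to 200.4, against 59.4 to 109.5. The sum thus follows Car3 and does not gauge the amount of adipocyte RNA. The part of adipocytes in the Pck1 and Pcx values was not tested. Pancreatic acinar markers had 6 of 6 tested genes above 0 and 0 past limma's threshold, with sums of 1805.4 to 11786 on high-fat arrays, against 1797.8 to 6756.6 on low-fat arrays. The highest sum was that of high-fat array 2, on which the muscle gene Acta1 also read 1770.6, against 60.0 or less on the other arrays. Without that array the Txnip difference was -1.37, with the adjusted p of 0.0596 given above. In whole liver, fewer cells of a type and less RNA per cell cannot be told apart.

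**Figure D5:**
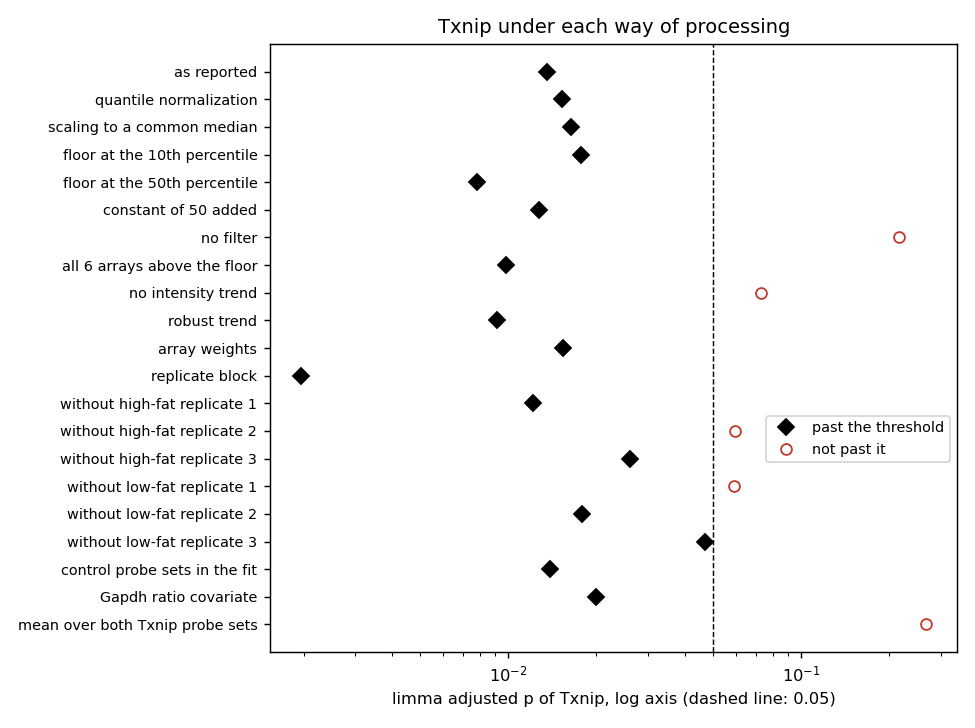
Adjusted p of the Txnip difference from limma (horizontal log axis, dashed line at 0.05) under each way of processing, where diamonds passed and open circles did not. The call was lost in 5 of 20 alternatives, with adjusted p-values from 0.0590 to 0.268.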

How the data were processed

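Liver RNA was read on 6 Affymetrix mouse arrays. The deposited table holds 1 linear intensity per probe set and array, for 12488 probe sets. The authors had scaled each array as a whole, as the trimmed means show, and their software is not given in the sources used here. Diet and array number come from the sample titles. Values under the pooled 30th percentile, 68.9, were set to it and log2 was taken. Apart from 66 array controls, all probe sets with at least 3 arrays above the floor, 8950 in number, went into a fit by limma 3.58.1 (R 4.3.3, lmFit, eBayes with an intensity trend), high-fat minus low-fat, two-sided, with Benjamini-Hochberg adjustment at 0.05. Folds come from the floored log2 scale. Gene names follow the platform annotation, where 10855 had 1 symbol, 396 several and 1237 none. Member genes and gene lists were chosen with earlier results of these data known. All member probe sets are given, and from each list up to 4 members past the threshold, or else the 2 with the smallest p. The method was tested on simulated data with independent noise on each array, so deviations shared between arrays were not covered. The number of arrays limits the precision. Alternatives covered scaling, floor, filter, variance model, array weights, a replicate block and each array left out.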

Additional observations from a re-analysis of the deposited data

How the results depend on the processing

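The Txnip difference was below 0 in all 20 alternatives, of which 19 concern 160547_s_at. The call was lost without a filter (adjusted p = 0.217, log2 difference -1.45), without the intensity trend (0.0728, also -1.45) and with both probe sets averaged (-0.59). With each array left out the difference ran from -1.63 to -1.31. Member probe sets past the threshold numbered 1 as reported, 0 without a filter or without the intensity trend, and 2 (Txnip and Pck1) with a floor at the 50th percentile, a filter on all 6 arrays, array weights, a replicate block or an adjusted p of 0.10. With each array left out there were 0 to 1. List genes past it numbered 3 as reported and 0 without a filter or trend, and 0 to 3 with an array left out. All tested probe sets past it numbered 74 as reported, 8 without a filter, 20 without the trend, 120 at an adjusted p of 0.10 and 26 to 75 with an array left out; the low counts were 28 (second high-fat array out) and 31, 26 and 45 (low-fat arrays 1, 2 and 3 out in turn). The Fbp1 difference ran from -0.085 to 0.011 with an array left out, and only the value without high-fat array 3 was above 0. The cause was not tested. The main fit did not pair arrays by number. Deviations of same-numbered arrays correlated with r of 0.07, 0.11 and 0.31, all above 0, and 4 of the 6 arrays correlated best with their own number. Deviations within a diet sum to 0, so these values depend on each other, and no chance level was computed. Whether same-numbered arrays share a batch was not tested. With the replicate block the Txnip adjusted p was 0.00196 (difference -1.45), that of Pck1 0.0439, and 103 probe sets passed. The other 8 member probe sets kept their side of the threshold and their sign in each alternative run, though the size of several moved by over 1.5 times, as given with their values. With 3 arrays a diet, a 1.26-fold difference such as that of Slc2a2 did not pass in any alternative.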
